A study of Homo sapiens with 4 samples.

Results

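The 32 genes described here encode the enzymes of glycolysis, the carriers that bring glucose into the cell and lactate out of it, and the enzymes that run the pathway in reverse. They were chosen by name and are 32 of the 43622 genes listed for each library. They fall into 16 steps, and 9 of these steps are served by several isoenzymes or isoforms of a carrier. RNA was measured in spheroids of the A549 line, in adherent A549 cells, in spheroids of the H1993 line and in a library labelled H1993 adherent. Both are established human lung adenocarcinoma lines, which the labels call lung epithelial cells, and H1993 is known for extra copies of MET. Spheroids are floating clusters of cells, and adherent cells grow attached to the dish. The labels name no further treatment or genotype. The study set the 2 cultures against each other to look at triacylglycerol synthesis.

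Glycolysis turns glucose into pyruvate and gives ATP without oxygen. Glucose enters through carriers of the SLC2A family, is trapped by a hexokinase, is committed to the pathway by phosphofructokinase and is split by aldolase. The enzymes from GAPDH to pyruvate kinase then turn the products into pyruvate. Lactate dehydrogenase reduces pyruvate to lactate, which leaves through SLC16A carriers. Many tumour cells run this route fast even when oxygen is present, and several of its genes are known targets of the hypoxia factor HIF-1 and of MYC.

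Each combination of line and culture had 1 library, with 15331121 to 17681746 exon reads, so nothing below is checked by replicates and no test between 2 libraries is given. The library labelled H1993 adherent resembled adherent A549 cells more than it did H1993 spheroids. Across 14759 autosomal genes, which are not independent replicates, the Pearson correlation of its log2 levels was 0.845 with those of H1993 spheroids and 0.947 with those of adherent A549 cells, while that between the A549 libraries was 0.897. CDKN2A, a tumour suppressor gene known to be deleted in A549, had 308 reads in H1993 spheroids and 75 in the library labelled H1993 adherent, but 0 in both A549 libraries. Its neighbour CDKN2B had 371 reads in H1993 spheroids and 89 in the library labelled H1993 adherent, but 0 in both A549 libraries. MET had 26102 reads in H1993 spheroids and 6549 in the library labelled H1993 adherent, against 4083 in A549 spheroids and 4545 in A549 adherent cells. In the H1993 pair, line and culture therefore cannot be told apart. All 8 epithelial markers had at least 10 reads in every library, with summed levels of 3682 TPM in A549 spheroids, 6615 TPM in A549 adherent cells, 9939 TPM in H1993 spheroids and 2296 TPM in the library labelled H1993 adherent (TPM is a level per exon length, scaled to the same sum in each library). Of 6 lung lineage markers 1 reached 10 reads in each library. Fibroblast markers summed to between 6.26 and 33.3 TPM, endothelial markers to between 0.332 and 3.22 TPM, and blood markers to between 25.7 and 131 TPM, with PTPRC and CD3E at 0 in 3 libraries and HBB at 0 in all 4. Nearly all of the blood marker sum was CD68, a lysosomal protein abundant in macrophages, at 131 TPM in A549 spheroids and 25.7 TPM in A549 adherent cells, and 113 TPM in H1993 spheroids and 49.8 TPM in the library labelled H1993 adherent. CD68 was thus over 2-fold higher in the spheroids of both pairs, and PTPRC had 45 reads in H1993 spheroids. Their part in the results below was not tested. In bulk RNA, fewer cells of a type and less RNA per cell cannot be told apart.

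Together the 32 genes made up 1.49% of all TPM in A549 spheroids, 1.45% in A549 adherent cells, 1.14% in H1993 spheroids and 1.37% in the library labelled H1993 adherent. GAPDH, the enzyme that oxidises glyceraldehyde phosphate, was the most abundant of them in each library. It took 35.1% of their summed TPM in A549 spheroids, 35.2% in A549 adherent cells, 21.1% in H1993 spheroids and 36.7% in the library labelled H1993 adherent. Without GAPDH their sum lay between 8695 and 9667 TPM in all 4 libraries. ALDOA, TPI1, GAPDH, PGK1, PGAM1, ENO1, PKM, LDHA and LDHB each stood above 400 TPM in every library. All glucose carriers, hexokinases and phosphofructokinase subunits stood below that in every library.

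**Figure D1:**
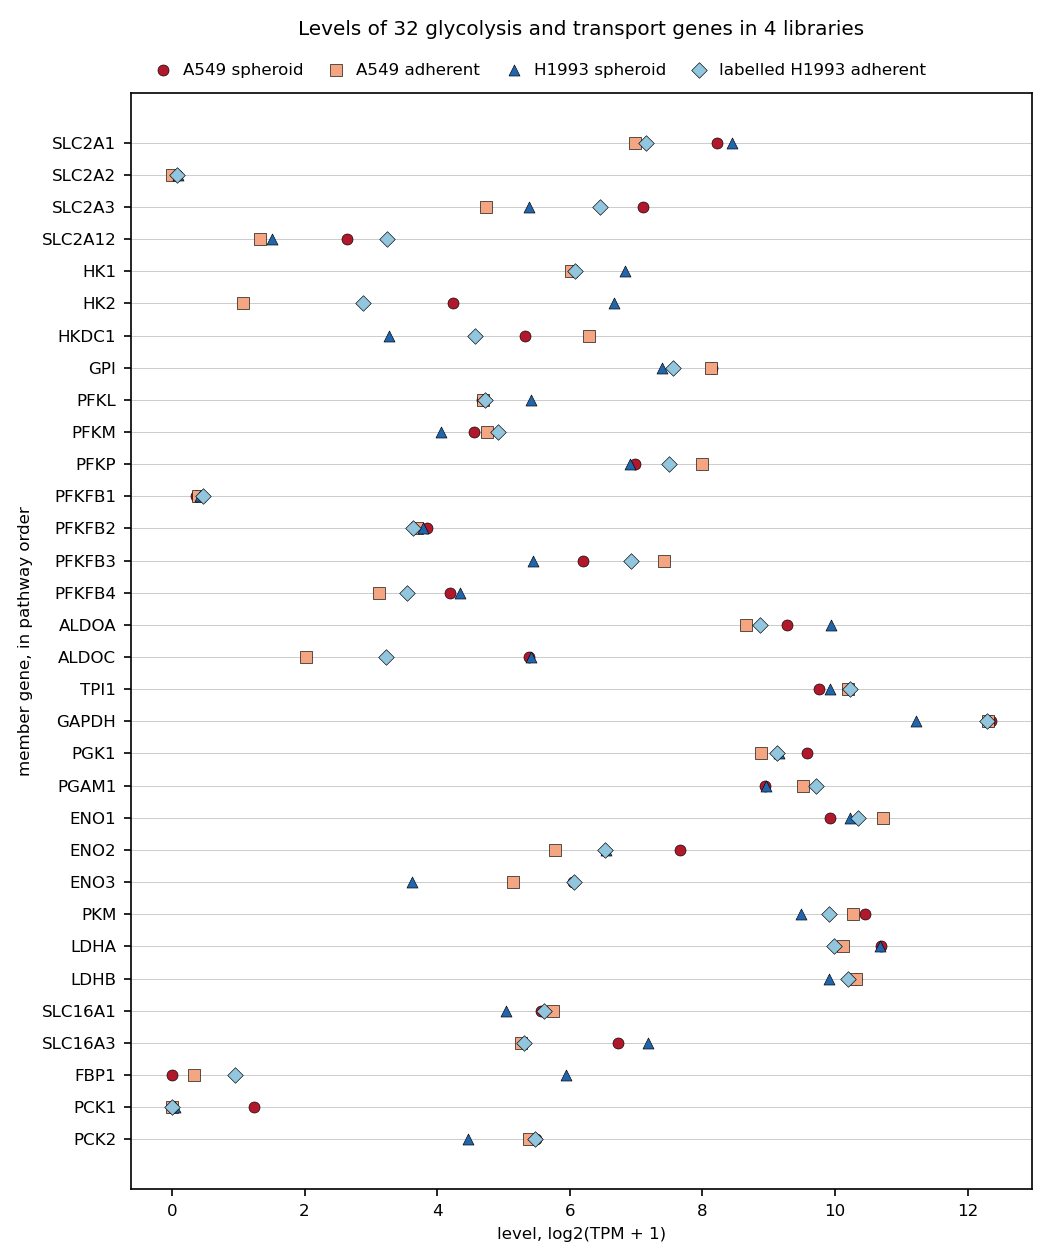
Level of each of the 32 genes in each of the 4 libraries, as log2(TPM + 1), in pathway order from top to bottom. Each symbol is 1 library. GAPDH stood highest in every library, HK2 had the widest spread among the 28 genes kept, and the 4 genes left out for low counts (SLC2A2, PFKFB1, FBP1 and PCK1) lay near 0, save FBP1 in H1993 spheroids.

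Of the 32 genes, 28 were kept by the filter on low counts, and SLC2A2, PFKFB1, FBP1 and PCK1 were not. Below, a gene is called higher or lower when its fold, after scaling by TMM factors (edgeR's correction for library size and makeup), was at least 2 and its 95% counting interval excluded no change. Log2 folds are spheroid over adherent with that interval in brackets, and intervals cover counting error only. In A549 cells 9 of the 28 kept genes (32.1%) were higher in spheroids, where 12.4% of all 15273 kept genes were higher, and 1 (3.57%) was lower, where 10.3% of all kept genes were lower. The median log2 fold of the kept members was 0.24, beside -0.0039 for all kept genes. In the H1993 pair 5 kept genes (17.9%) were higher in spheroids, beside 17.0% of all genes, and 7 (25%) were lower, beside 18.0% of all genes. The median there was -0.30, beside 0 for all kept genes. In the H1993 pair the share called higher was thus near that of all genes.

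The same 4 genes were higher in spheroids of both pairs, namely the glucose carrier SLC2A1, the hexokinase HK2, the aldolase ALDOC and the lactate carrier SLC16A3. PFKFB3, a regulator of phosphofructokinase, was lower in both. SLC2A3, SLC2A12 and ENO3 were higher in A549 spheroids and lower in H1993 spheroids. Of the kept genes, 14 were called in neither pair, and 12 stayed within 2-fold over all 4 libraries, namely HK1, GPI, PFKL, PFKM, PFKFB2, TPI1, PGK1, PGAM1, ENO1, LDHA, LDHB and SLC16A1. The shares of all kept genes with these patterns over both pairs are not given here, so the counts describe the members only. Closest to the limit in A549 were ENO3 inside, at 1.03, and PFKP outside, at -0.89. In the H1993 pair they were ALDOA inside, at 1.01, and PFKM outside, at -0.98.

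**Figure D2:**
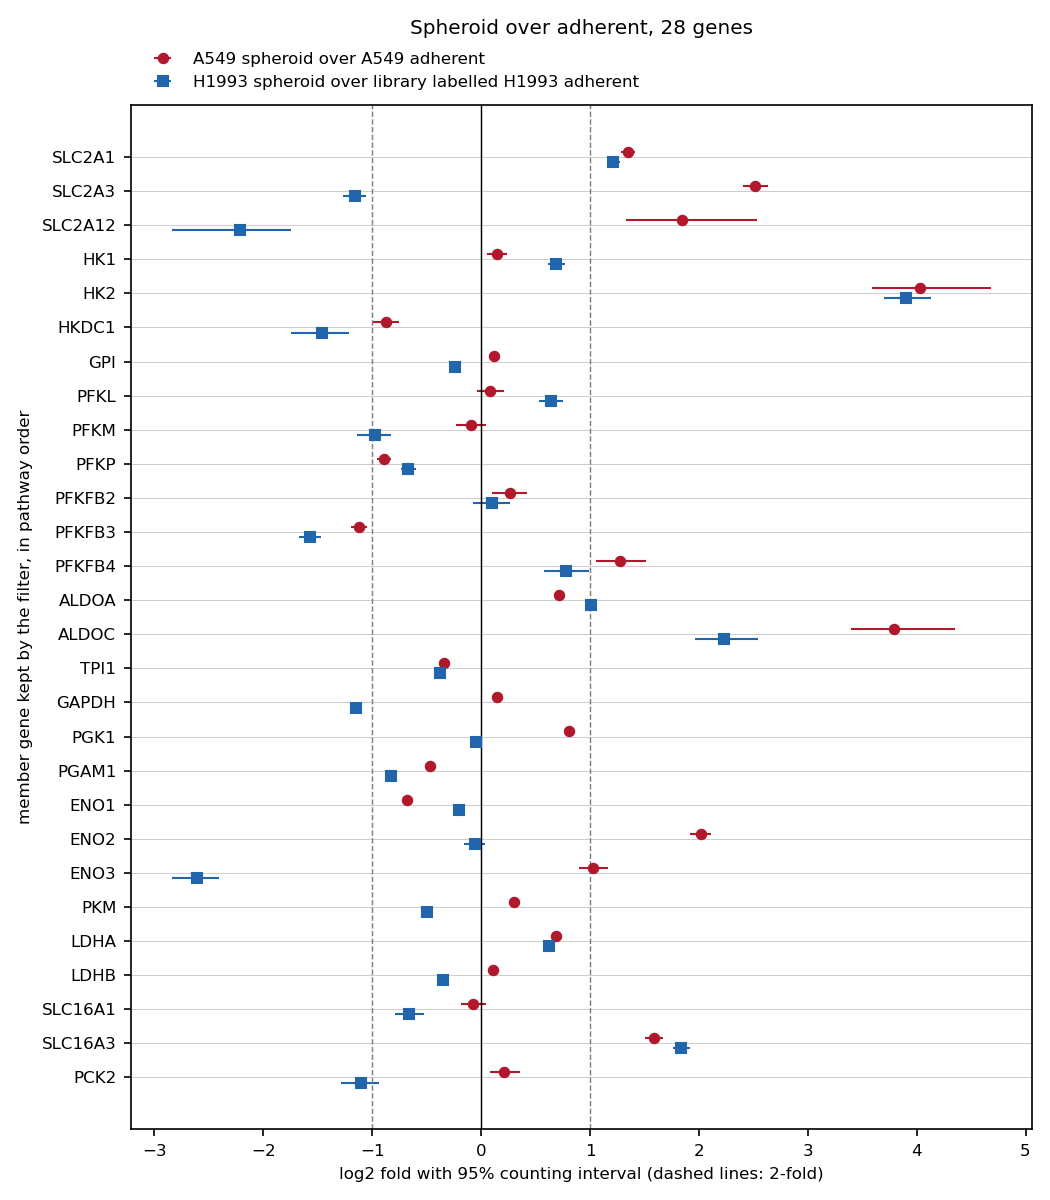
Log2 fold of spheroid over adherent exon reads for the 28 kept genes, in pathway order, with 95% counting intervals. Circles are the A549 pair, squares the H1993 pair as labelled, and dashed lines mark 2-fold. HK2, ALDOC, SLC2A1 and SLC16A3 lay to the right of the upper line in both pairs, PFKFB3 to the left of the lower line in both, and SLC2A3, SLC2A12 and ENO3 on opposite sides.

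The windows of 250 bases before the start of the 5 genes that moved the same way in both pairs are shown, because ACGTG and GCGTG are the core letters of hypoxia response elements, and CACGTG is the E-box that MYC binds. They are RefSeq sequences of build GRCh38.p14, in lower case, with matches to ACGTG or GCGTG on either strand in capitals. HK2, PFKFB3 and SLC16A3 have several windows in RefSeq, and the one whose start lies nearest the gene's start in the deposited files is shown.
SLC2A1 (chr1:42958869-42959118, minus strand): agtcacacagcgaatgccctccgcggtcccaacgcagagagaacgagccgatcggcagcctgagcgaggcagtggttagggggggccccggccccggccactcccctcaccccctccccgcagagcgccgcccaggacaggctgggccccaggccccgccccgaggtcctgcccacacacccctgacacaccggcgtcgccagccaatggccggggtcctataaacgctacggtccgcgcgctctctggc
HK2 (chr2:74833877-74834126, plus strand): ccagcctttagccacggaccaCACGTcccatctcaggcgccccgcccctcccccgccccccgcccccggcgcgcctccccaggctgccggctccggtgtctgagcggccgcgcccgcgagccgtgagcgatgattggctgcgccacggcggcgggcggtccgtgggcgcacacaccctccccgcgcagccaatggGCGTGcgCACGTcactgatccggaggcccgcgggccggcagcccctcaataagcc
PFKFB3 (chr10:6144671-6144920, plus strand): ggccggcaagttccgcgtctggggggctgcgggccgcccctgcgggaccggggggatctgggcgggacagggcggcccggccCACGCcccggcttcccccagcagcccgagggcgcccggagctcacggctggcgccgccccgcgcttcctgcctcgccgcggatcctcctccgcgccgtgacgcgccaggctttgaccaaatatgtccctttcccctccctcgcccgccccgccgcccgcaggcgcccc
ALDOC (chr17:28576896-28577145, minus strand): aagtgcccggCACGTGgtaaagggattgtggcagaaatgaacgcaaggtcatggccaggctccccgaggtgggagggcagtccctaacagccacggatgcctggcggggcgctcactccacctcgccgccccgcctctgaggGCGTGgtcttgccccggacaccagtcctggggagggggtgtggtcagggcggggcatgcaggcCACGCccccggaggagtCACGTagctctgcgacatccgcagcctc
SLC16A3 (chr17:82228185-82228434, plus strand): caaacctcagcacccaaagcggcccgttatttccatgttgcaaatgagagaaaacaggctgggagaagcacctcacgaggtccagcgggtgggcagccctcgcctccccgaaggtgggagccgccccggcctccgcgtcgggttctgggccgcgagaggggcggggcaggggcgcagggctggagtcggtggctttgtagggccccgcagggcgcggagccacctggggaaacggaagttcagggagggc

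The HK2 window held 2 matches to ACGTG and 1 to GCGTG, and the ALDOC window 3 and 2. The ALDOC count includes a CACGTG, which reads ACGTG on each strand and so counts as 2. The PFKFB3 window held 1 GCGTG, and the windows of SLC2A1 and SLC16A3 held neither. Over all 55 RefSeq windows of the 28 member genes found by symbol, 29.1% held ACGTG, 29.1% GCGTG and 49.1% either. Over all 35116 windows of the same length the shares were 18.5%, 32.2% and 43.2%. Windows of 1 gene can overlap, and a match is a description and not a site. Sequence outside these windows was not searched, so a window without a match does not show that the gene lacks such a sequence. The starts differ between sources, and the windows of SLC2A1 and ALDOC lay wholly inside the gene as the files give it, and those of HK2 and SLC16A3 in part.

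Glucose carriers came first in the pathway, and their makeup differed between the libraries. SLC2A1, the widely used carrier GLUT1 (ENSG00000117394, chromosome 1, 42925375 to 42959173, hg38), had 7249 reads (296 TPM) in A549 spheroids and 2721 (125 TPM) in A549 adherent cells, with a log2 fold of 1.35 (1.29 to 1.41). It had 6971 reads (346 TPM) in H1993 spheroids and 3409 (142 TPM) in the library labelled H1993 adherent, with a fold of 1.22 (1.16 to 1.28). Both spheroid libraries stood above both adherent ones. SLC2A3, the high-affinity carrier GLUT3 (ENSG00000059804, chromosome 12, 7919230 to 7936275), had 4343 reads (136 TPM) in A549 spheroids and 725 (25.6 TPM) in A549 adherent cells, with a fold of 2.52 (2.41 to 2.63). It had 1074 reads (40.9 TPM) in H1993 spheroids and 2730 (86.9 TPM) in the library labelled H1993 adherent, with a fold of -1.16 (-1.27 to -1.06). SLC2A3 has a near-identical copy, SLC2A14, and 87.8% of its reads were unique to it, and with unique reads alone the folds were 2.51 and -1.15. SLC2A12 (GLUT12) was sparse, with 122 reads in A549 spheroids and 31 in A549 adherent cells, a fold of 1.85 (1.33 to 2.53). It had 35 reads in H1993 spheroids and 192 in the library labelled H1993 adherent, a fold of -2.21 (-2.84 to -1.75). SLC2A12 overlaps TBPL1 on the other strand, a gene with 154 to 400 reads. SLC2A2, the carrier GLUT2 of liver and pancreatic islets, had at most 1 read in each library.

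Of the summed TPM of the 4 glucose carriers, SLC2A1 took 67.7% in A549 spheroids and 82.2% in A549 adherent cells, and SLC2A3 took 31.1% in A549 spheroids and 16.8% in A549 adherent cells. In H1993 spheroids SLC2A1 took 89.0% and SLC2A3 10.5%, against 59.7% and 36.7% in the library labelled H1993 adherent. The carrier mix thus moved in opposite directions in the 2 pairs, although SLC2A1 itself was higher in the spheroids of each.

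Hexokinases gave the largest fold of any kept member. HK2, the inducible hexokinase of muscle and many tumours (ENSG00000159399, chromosome 2, 74833981 to 74893359), had 560 reads (17.8 TPM) in A549 spheroids and 31 (1.11 TPM) in A549 adherent cells, with a log2 fold of 4.03 (3.59 to 4.68). It had 2612 reads (100.9 TPM) in H1993 spheroids and 197 (6.37 TPM) in the library labelled H1993 adherent, with a fold of 3.90 (3.70 to 4.13). Both spheroid libraries lay above both adherent ones, and the range over the 4 libraries was 6.36 on the log2 scale. HK1, the broadly expressed hexokinase (ENSG00000156515, chromosome 10, 69269984 to 69401882), stayed within 2-fold over all 4 libraries, at 65.1 TPM in A549 spheroids, 63.6 in A549 adherent cells, 113 in H1993 spheroids and 66.7 in the library labelled H1993 adherent. HKDC1, a hexokinase domain protein whose gene lies beside HK1 (ENSG00000156510, chromosome 10, 69220303 to 69267559), had 861 reads in A549 spheroids and 1512 in A549 adherent cells. That fold, -0.87 (-1.0 to -0.75), did not reach 2-fold. It had 157 reads in H1993 spheroids and 496 in the library labelled H1993 adherent, a fold of -1.46 (-1.74 to -1.21).

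The hexokinase mix moved with these folds. HK2 made up 14.6% of hexokinase TPM in A549 spheroids and 0.783% in A549 adherent cells, while HKDC1 made up 32% in A549 spheroids and 54.4% in A549 adherent cells. In H1993 spheroids HK2 made up 45.3% and HKDC1 3.87%, against 6.64% and 23.8% in the library labelled H1993 adherent. By exon reads, HK2 held 16.1% (14.9 to 17.4, exact Clopper-Pearson interval) in A549 spheroids and 0.934% (0.635 to 1.32) in A549 adherent cells. It held 45.8% (44.5 to 47.1) in H1993 spheroids and 7.14% (6.21 to 8.17) in the library labelled H1993 adherent. In both pairs the intervals lay far apart.

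GPI, which interconverts glucose and fructose phosphates, had 13294 reads in A549 spheroids and 11687 in A549 adherent cells, and 6490 in H1993 spheroids and 8720 in the library labelled H1993 adherent. Its folds were 0.12 (0.087 to 0.16) and -0.24 (-0.29 to -0.20), and 64.3% of its reads were unique. Of the phosphofructokinase subunits, PFKP, the platelet type, was the most abundant in every library, with 126 TPM in A549 spheroids and 253 in A549 adherent cells, and 119 in H1993 spheroids and 179 in the library labelled H1993 adherent. PFKP did not reach 2-fold in either pair, at -0.89 (-0.96 to -0.83) in A549 and -0.67 (-0.74 to -0.60) in H1993. The liver subunit PFKL had folds of 0.083 (-0.040 to 0.21) and 0.64 (0.53 to 0.75), and the A549 value turned below 0 when scaled by library size alone or taken from TPM. The muscle subunit PFKM had folds of -0.091 (-0.23 to 0.046) and -0.98 (-1.14 to -0.83). PFKP took 72.9% of the subunits' TPM in A549 spheroids and 83.3% in A549 adherent cells, and 67.4% in H1993 spheroids and 76.6% in the library labelled H1993 adherent.

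The PFKFB enzymes make and remove a signalling sugar phosphate, distinct from the glycolytic intermediate, that activates phosphofructokinase. PFKFB3, the isoform with strong kinase activity (ENSG00000170525, chromosome 10, 6144934 to 6254644), had 2306 reads (72.7 TPM) in A549 spheroids and 4791 (170.3 TPM) in A549 adherent cells, with a log2 fold of -1.12 (-1.19 to -1.05). It had 1110 reads (42.5 TPM) in H1993 spheroids and 3743 (120.1 TPM) in the library labelled H1993 adherent, with a fold of -1.57 (-1.67 to -1.47). Both spheroid libraries lay below both adherent ones. PFKFB4 (ENSG00000114268, chromosome 3, 48517684 to 48562015) went the other way, at 17.3 TPM in A549 spheroids and 7.69 TPM in A549 adherent cells, a fold of 1.28 (1.05 to 1.52). It stood at 19.4 TPM in H1993 spheroids and 10.7 TPM in the library labelled H1993 adherent, and that fold, 0.78 (0.58 to 0.99), did not reach 2-fold. PFKFB2 stood between 11.4 and 13.3 TPM in all 4 libraries, and PFKFB1, the liver and muscle form, had 3 or 4 reads in each. The ratio of PFKFB3 to PFKFB4 TPM was 4.20 in A549 spheroids and 22.2 in A549 adherent cells, and 2.19 in H1993 spheroids and 11.2 in the library labelled H1993 adherent. PFKFB4 made up 16.7% of the TPM of this step in A549 spheroids and 4.04% in A549 adherent cells, and 25.8% in H1993 spheroids and 7.52% in the library labelled H1993 adherent.

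**Figure D3:**
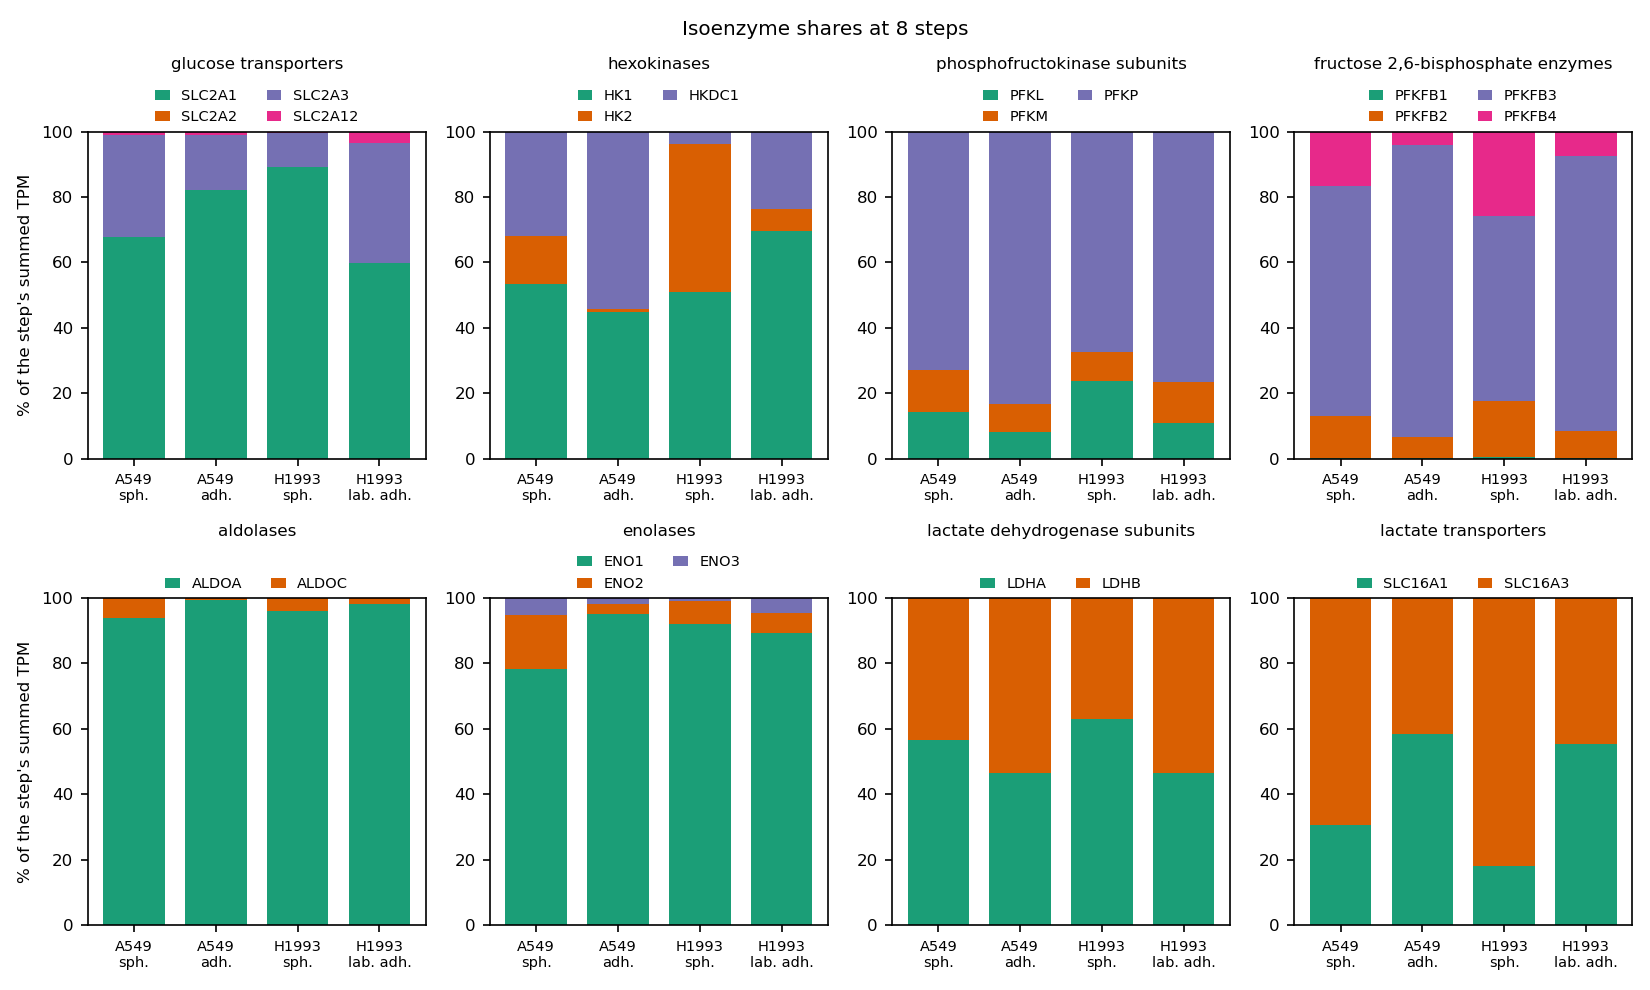
Share of each isoenzyme in the summed TPM of its step, in percent, for 8 of the 9 steps with several members; the PEP carboxykinases are left out because PCK1 is near 0. Each bar is 1 library. HK2 took 14.6% and 45.3% of hexokinase TPM in the A549 and H1993 spheroids, SLC16A3 took 69.3% and 82.0% of lactate carrier TPM there, and the share of PFKFB3 was smaller in the spheroids of both pairs.

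ALDOA, the aldolase of muscle and most cells (ENSG00000149925, chromosome 16, 30053090 to 30070457), had 19697 reads (617 TPM) in A549 spheroids and 11461 (405 TPM) in A549 adherent cells, with a fold of 0.72 (0.68 to 0.75). It had 25772 reads (982 TPM) in H1993 spheroids and 14573 (465 TPM) in the library labelled H1993 adherent, with a fold of 1.01 (0.98 to 1.04), which sat at the limit and did not pass when scaled by library size alone or without the filter. ALDOC, the brain aldolase (ENSG00000109107, chromosome 17, 28573115 to 28577264), had 620 reads (40.8 TPM) in A549 spheroids and 41 (3.04 TPM) in A549 adherent cells, with a fold of 3.79 (3.40 to 4.35). It had 522 reads (41.8 TPM) in H1993 spheroids and 125 (8.37 TPM) in the library labelled H1993 adherent, with a fold of 2.23 (1.96 to 2.54). Both spheroid libraries lay well above both adherent ones, and ALDOC stayed the minor aldolase throughout, at 6.20% of aldolase TPM in A549 spheroids and 0.746% in A549 adherent cells, and 4.08% in H1993 spheroids and 1.77% in the library labelled H1993 adherent. A gene on the same strand, AC005726.2, overlaps ALDOC, and 42.9% of ALDOC reads were unique. With unique reads alone the folds were 3.87 and 2.32.

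At the single-gene steps from triose phosphate onwards, GAPDH in H1993 was the 1 call. TPI1, which interconverts the triose phosphates, had folds of -0.34 (-0.37 to -0.30) in A549 and -0.38 (-0.41 to -0.34) in H1993, with 862 TPM in A549 spheroids, 1176 in A549 adherent cells, 966 in H1993 spheroids and 1193 in the library labelled H1993 adherent. GAPDH (ENSG00000111640, chromosome 12, 6533927 to 6538374) had 80871 reads (5227 TPM) in A549 spheroids and 69757 (5085 TPM) in A549 adherent cells, a fold of 0.15 (0.14 to 0.16). It had 30484 reads (2397 TPM) in H1993 spheroids and 76542 (5036 TPM) in the library labelled H1993 adherent, a fold of -1.14 (-1.16 to -1.13). H1993 spheroids thus had the lowest GAPDH level of the 4 libraries. PGK1, the first ATP-forming enzyme, had 762.1 TPM in A549 spheroids and 471 in A549 adherent cells, a fold of 0.80 (0.77 to 0.84). It had 568 TPM in H1993 spheroids and 558 in the library labelled H1993 adherent, a fold of -0.047 (-0.080 to -0.013), whose sign turned with TPM plus 1. PGAM1, the phosphoglycerate mutase, had 493 TPM in A549 spheroids and 735 in A549 adherent cells, and 499 in H1993 spheroids and 840.2 in the library labelled H1993 adherent. Its folds were -0.47 (-0.51 to -0.42) and -0.82 (-0.87 to -0.78), and 91.9% of its reads were unique.

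Enolases make phosphoenolpyruvate. ENO1, the main form in most cells (ENSG00000074800, chromosome 1, 8861002 to 8879249), had 972 TPM in A549 spheroids and 1687 in A549 adherent cells, a fold of -0.68 (-0.71 to -0.66), and 1195 in H1993 spheroids and 1305 in the library labelled H1993 adherent, a fold of -0.20 (-0.23 to -0.17). ENO2, the neuronal form (ENSG00000111674, chromosome 12, 6913745 to 6923698), had 202 TPM in A549 spheroids and 53.9 in A549 adherent cells, a fold of 2.02 (1.92 to 2.12). It had 92.2 TPM in H1993 spheroids and 91.3 in the library labelled H1993 adherent, a fold of -0.058 (-0.15 to 0.036) whose sign turned with TPM plus 1. The A549 spheroid library alone was high, and there ENO2 made up 16.3% of enolase TPM, against 3.04% in A549 adherent cells, and 7.10% in H1993 spheroids against 6.24% in the library labelled H1993 adherent. ENO3, the muscle form (ENSG00000108515, chromosome 17, 4948092 to 4957131), had 1450 reads in A549 spheroids and 679 in A549 adherent cells, a fold of 1.03 (0.90 to 1.17), and this call was lost when scaled by library size alone and with TPM. It had 207 reads in H1993 spheroids and 1448 in the library labelled H1993 adherent, a fold of -2.61 (-2.84 to -2.41). ENO3 overlaps PFN1 on the other strand, a gene with 7097 to 15935 reads, and whether counting used strand is not given in the sources used here.

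PKM, the pyruvate kinase (ENSG00000067225, chromosome 15, 72199029 to 72231822), had 62508 reads (1405 TPM) in A549 spheroids and 48605 (1232 TPM) in A549 adherent cells, a fold of 0.30 (0.28 to 0.32). It had 26224 reads (717 TPM) in H1993 spheroids and 41905 (959 TPM) in the library labelled H1993 adherent, a fold of -0.49 (-0.51 to -0.47). Counts per gene do not separate the M1 and M2 splice forms of PKM.

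At the lactate end, LDHA and SLC16A3 took larger shares of their steps in the spheroids of both pairs. LDHA, the subunit that favours lactate formation (ENSG00000134333, chromosome 11, 18394388 to 18408425), had 1656 TPM in A549 spheroids and 1109 in A549 adherent cells, a fold of 0.69 (0.67 to 0.71). It had 1643 TPM in H1993 spheroids and 1014 in the library labelled H1993 adherent, a fold of 0.62 (0.60 to 0.64). LDHB, the heart-type subunit, had folds of 0.11 (0.082 to 0.14) in A549, a sign that turned when scaled by library size alone, and -0.35 (-0.38 to -0.32) in H1993. Neither subunit reached 2-fold. LDHA made up 56.5% of lactate dehydrogenase TPM in A549 spheroids and 46.5% in A549 adherent cells, and 63.0% in H1993 spheroids and 46.5% in the library labelled H1993 adherent. By exon reads it held 73.0% in A549 spheroids and 64.4% in A549 adherent cells, and 78.0% in H1993 spheroids and 64.4% in the library labelled H1993 adherent. By both measures its share was larger in spheroids, while in the adherent libraries LDHA was the smaller subunit by TPM and the larger by exon reads.

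SLC16A3, the carrier MCT4 that exports lactate from glycolytic cells (ENSG00000141526, chromosome 17, 82228397 to 82261129), had 4900 reads (105 TPM) in A549 spheroids and 1556 (37.6 TPM) in A549 adherent cells, with a fold of 1.59 (1.51 to 1.68). It had 5554 reads (145 TPM) in H1993 spheroids and 1766 (38.5 TPM) in the library labelled H1993 adherent, with a fold of 1.84 (1.76 to 1.91). The spheroid libraries stood together and so did the adherent ones. SLC16A3 overlaps CSNK1D on the other strand, a gene with 2175 to 2751 reads. On the same strand it overlaps AC132872.4, which had 33 reads in A549 spheroids and 11 in A549 adherent cells. AC132872.4 had 101 reads in H1993 spheroids and 4 in the library labelled H1993 adherent. SLC16A1, the carrier MCT1, which moves lactate in either direction, had 1280 reads in A549 spheroids and 1286 in A549 adherent cells, a fold of -0.070 (-0.18 to 0.043). It had 721 reads in H1993 spheroids and 1293 in the library labelled H1993 adherent, a fold of -0.66 (-0.79 to -0.53). SLC16A3 made up 69.3% of the TPM of both carriers in A549 spheroids and 41.7% in A549 adherent cells, and 82.0% in H1993 spheroids and 44.6% in the library labelled H1993 adherent. By exon reads, which are not scaled by length, SLC16A3 held 79.3% in A549 spheroids and 54.8% in A549 adherent cells, and 88.5% in H1993 spheroids and 57.7% in the library labelled H1993 adherent. Its share was larger in spheroids by both measures, while in the adherent libraries SLC16A1 was the more abundant carrier by TPM and SLC16A3 by exon reads.

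Of the 3 enzymes of gluconeogenesis, PCK2, the mitochondrial PEP carboxykinase, was the 1 kept by the filter (ENSG00000100889, chromosome 14, 24094053 to 24110598). PCK2 had 952 reads in A549 spheroids and 785 in A549 adherent cells, a fold of 0.21 (0.077 to 0.35), and 378 in H1993 spheroids and 926 in the library labelled H1993 adherent, a fold of -1.11 (-1.29 to -0.93). FBP1, the fructose bisphosphatase that opposes phosphofructokinase (ENSG00000165140, chromosome 9, 94603133 to 94640249), had 0 reads in A549 spheroids and 2 in A549 adherent cells, but 429 (60.3 TPM) in H1993 spheroids and 8 (0.941 TPM) in the library labelled H1993 adherent. With a floor of 3 reads in A549 spheroids, the fold of FBP1 in H1993 over A549 spheroids was 155. The lower limit of its counting interval was 6.97 on the log2 scale. PCK1, the cytosolic PEP carboxykinase of liver and kidney (ENSG00000124253, chromosome 20, 57561080 to 57568112), had 48 reads in A549 spheroids and 0 in A549 adherent cells. With a floor of 3 reads its fold there was 15.3, and the lower limit of its counting interval was 3.58 on the log2 scale. PCK1 had 1 read in H1993 spheroids and 0 in the library labelled H1993 adherent. Neither gene passed the filter, because each was high in 1 library only.

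Between the lines, H1993 spheroids held 1 kept member higher than A549 spheroids (3.57%), where 18.0% of all genes were higher, and 8 lower (28.6%), where 19.1% of all genes were lower. The median log2 fold of H1993 over A549 spheroids was -0.41, beside 0.0051 for all kept genes. The 1 higher gene was HK2, at 2.34 (2.21 to 2.47). The lower genes were ENO3 at -2.68 (-2.91 to -2.48), HKDC1 at -2.32 (-2.59 to -2.09), SLC2A3 at -1.90 (-2.00 to -1.80), SLC2A12 at -1.63 (-2.27 to -1.13), ENO2 at -1.30 (-1.38 to -1.22), GAPDH at -1.29 (-1.31 to -1.27), PCK2 at -1.21 (-1.39 to -1.04) and PKM at -1.14 (-1.16 to -1.11). SLC2A1, PFKFB4, ALDOC, TPI1, PGAM1 and ENO1 lay within 0.15 of 0 on the log2 scale, and of these PFKFB4, ALDOC, TPI1 and PGAM1 turned sign under some scalings.

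In the library labelled H1993 adherent, 4 kept members were higher than in adherent A549 cells (14.3%), where 6.94% of all genes were higher, and 1 was lower (3.57%), where 5.49% of all genes were lower. HK2 was higher at 2.47 (1.99 to 3.13), SLC2A12 at 2.43 (1.95 to 3.10), SLC2A3 at 1.78 (1.67 to 1.90) and ALDOC at 1.44 (0.96 to 2.03). HKDC1 was lower at -1.73 (-1.89 to -1.59). The median was 0.071, beside 0.0031 for all kept genes. HK2 was thus higher and HKDC1 lower in both comparisons of the lines, while SLC2A3 and SLC2A12 lay on opposite sides in the 2 comparisons. The adherent comparison rests on the library labelled H1993 adherent, which resembled adherent A549 cells more than H1993 spheroids. Its HK2 fold also rests on 31 reads in A549 adherent cells. The 4 comparisons are made of the same 4 libraries, so their values are not independent of each other.

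**Figure D4:**
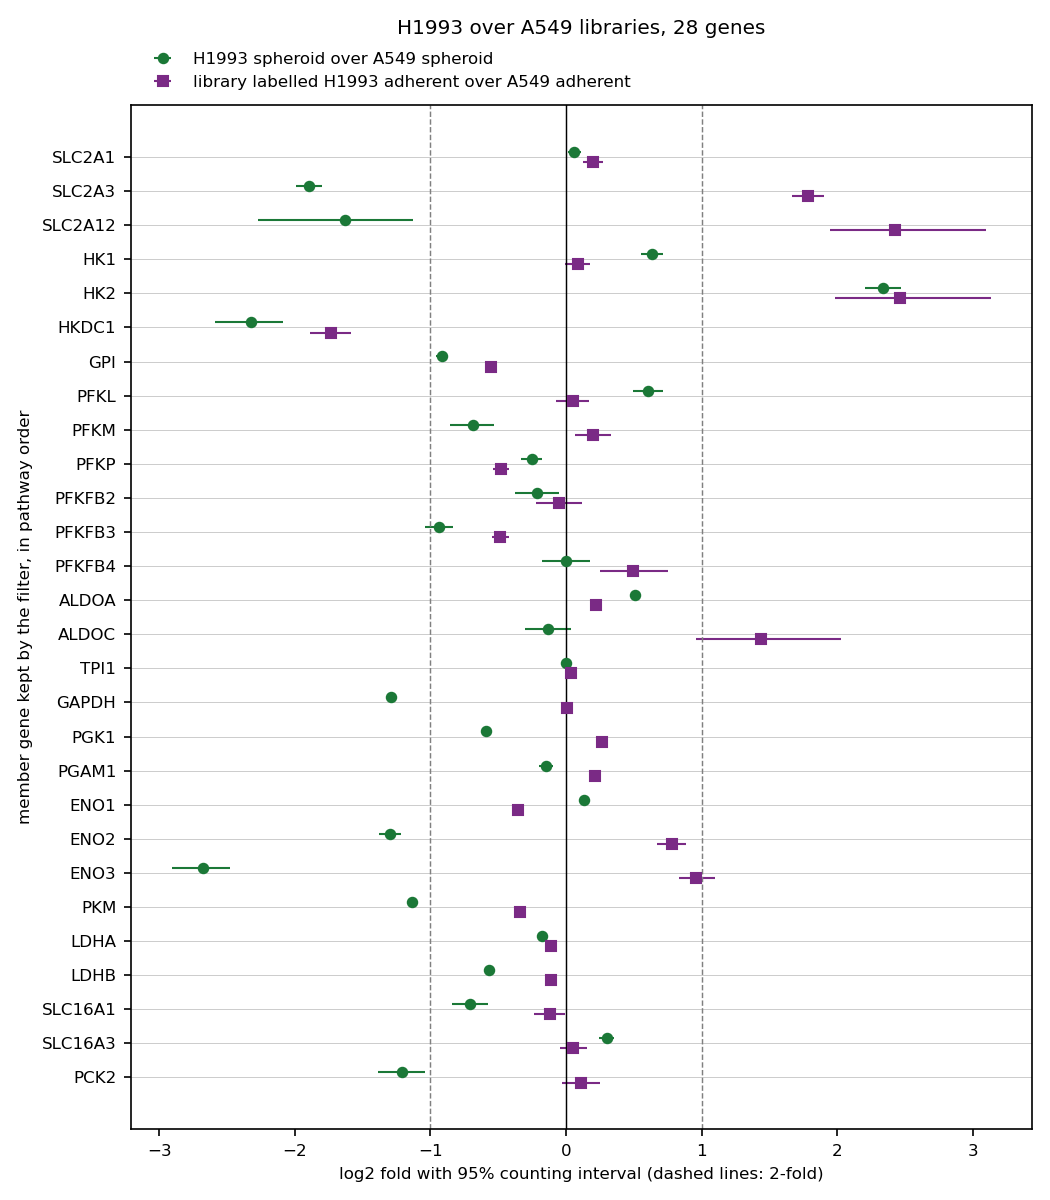
Log2 fold of H1993 over A549 libraries for the 28 kept genes, with 95% counting intervals. Circles are spheroids, squares are the adherent libraries with the H1993 one as labelled, and dashed lines mark 2-fold. HK2 lay right of the upper line and HKDC1 left of the lower line in both cultures, and SLC2A3 and SLC2A12 on opposite sides.

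Intron reads, which come largely from unspliced RNA, were counted separately in the deposited files and give a second readout of the same libraries. With at least 50 intron reads in the higher library, 21 of the 32 genes could be compared in A549 and 28 in H1993. The intron fold had the sign of the exon fold in 15 and 23 of them. In H1993 all 11 called genes with enough intron reads had an intron fold of the same sign whose interval excluded 0. In A549 this held for 6 of 7, and ENO3 was the exception, with an intron fold of -0.74 (-1.0 to -0.48) beside an exon fold of 1.03. The shares of all genes with such matching signs are not given here. Intron and exon reads come from the same libraries, so these counts describe the members only. ENO3, which is among the called genes of both pairs, overlaps PFN1 on the other strand. PFN1 had 8781 exon reads in A549 spheroids and 15081 in A549 adherent cells. In the H1993 pair it had 7097 in spheroids and 15935 in the library labelled H1993 adherent. Whether the intron reads of ENO3 include reads from PFN1 was not tested.

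Among the genes called in both pairs, HK2 had 198 intron reads in H1993 spheroids and 10 in the library labelled H1993 adherent, an intron fold of 4.23 (3.58 to 5.57), and had too few in A549. SLC16A3 had 424 in A549 spheroids and 134 in A549 adherent cells, an intron fold of 1.58 (1.32 to 1.89), and 1384 in H1993 spheroids and 173 in the library labelled H1993 adherent, one of 3.17 (2.95 to 3.42). PFKFB3 had 347 in A549 spheroids and 1122 in A549 adherent cells, one of -1.75 (-1.93 to -1.58), and its H1993 intron fold was -1.53 (-1.74 to -1.33). SLC2A1 had intron folds of 0.80 (0.40 to 1.24) in A549 and 1.05 (0.72 to 1.42) in H1993. In these 4 genes intron and exon folds had the same sign wherever both could be given. Whether the intron reads of SLC16A3 include reads of the genes that overlap it was not tested.

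Several genes with small exon folds had larger intron folds. PGK1 had 1021 intron reads in A549 spheroids and 151 in A549 adherent cells, an intron fold of 2.68 (2.45 to 2.95) beside an exon fold of 0.80. In the H1993 pair it had 543 in spheroids and 291 in the library labelled H1993 adherent, 1.08 (0.88 to 1.29) beside -0.047. LDHA had intron folds of 1.14 (0.80 to 1.51) in A549 and 1.96 (1.65 to 2.34) in H1993, beside exon folds of 0.69 and 0.62. GPI had 5711 intron reads in A549 spheroids and 1816 in A549 adherent cells, 1.59 (1.51 to 1.67) beside 0.12, but 0.32 (0.24 to 0.41) beside -0.24 in H1993. PGAM1 had 67 intron reads in H1993 spheroids and 31 in the library labelled H1993 adherent, 1.24 (0.66 to 1.96) beside an exon fold of -0.82. In A549, LDHB had an intron fold of -0.93 (-1.16 to -0.71) beside an exon fold of 0.11. The strand of these intron reads was not tested.

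**Figure D5:**
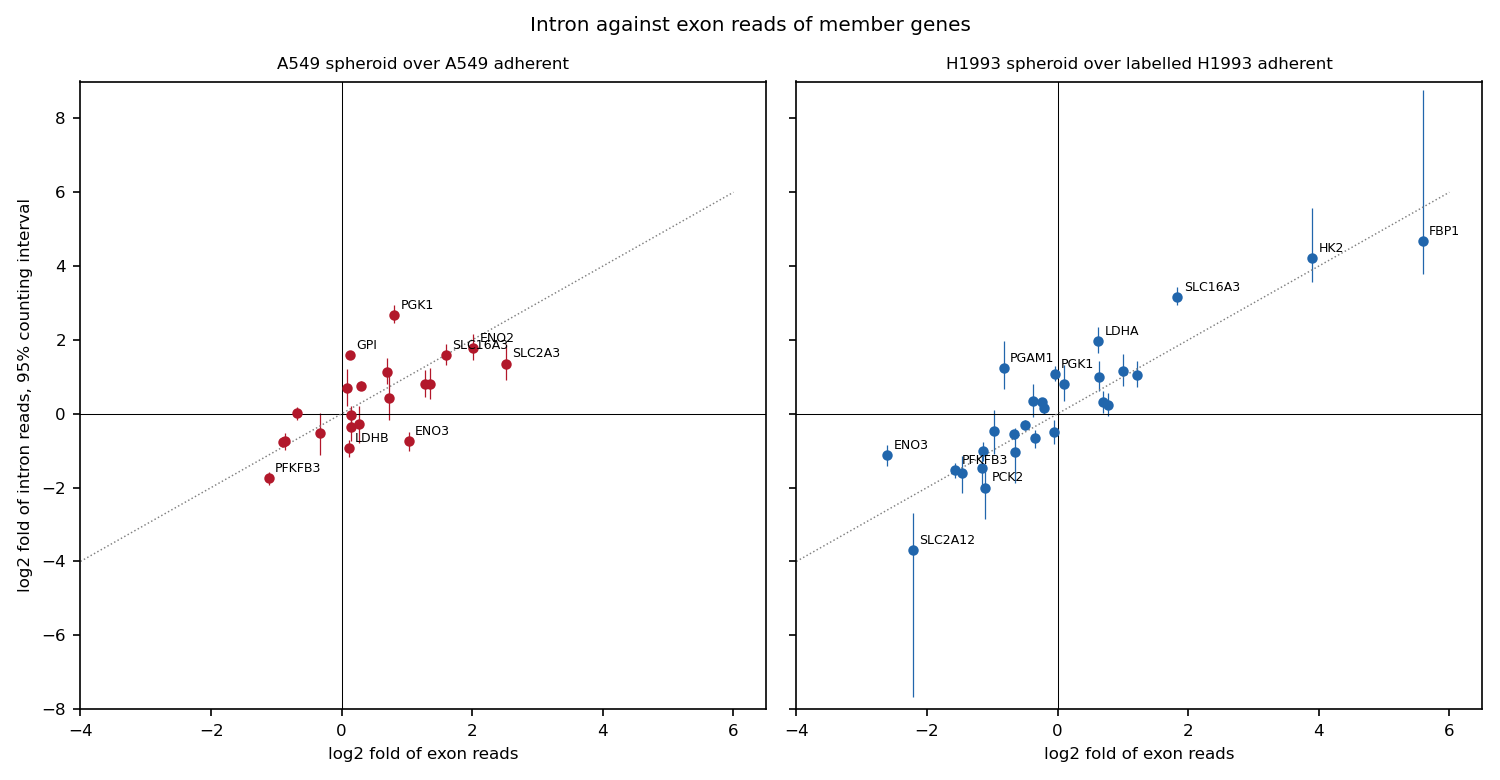
Log2 fold of intron reads (vertical, with 95% counting intervals) against log2 fold of exon reads (horizontal), spheroid over adherent, for the 21 genes of the A549 pair and the 28 of the H1993 pair with enough intron reads. Each point is 1 gene, the dotted line marks equal folds, and genes far from it or with large folds are named. PGK1 lay above the line in both panels, and ENO3 in A549 lay below 0 at an exon fold of 1.03.

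Over both lines together, edgeR's quasi-likelihood test of culture with line as a term, which has 1 residual degree of freedom, called 0% of the 15273 genes and none of the members at an adjusted p under 0.05. At an unadjusted p under 0.05 it gave 1258 genes (8.24%) and 6 of the 28 members tested, namely HK2, ALDOC, SLC16A3, PFKFB3, SLC2A1 and HKDC1. Genes passing the unadjusted limit alone are not calls. HK2 had a log2 fold of 4.01 and an edgeR adjusted p of 0.264, and ALDOC one of 3.03 and an edgeR adjusted p of 0.377. DESeq2 with the same terms called 591 genes (3.87%) and 2 of the 28 members, HK2 (adjusted p = 1.43e-08) and ALDOC (adjusted p = 9.17e-04). SLC16A3 had a DESeq2 adjusted p of 0.0545. This fit uses the library labelled H1993 adherent, and without it no residual degree of freedom is left.

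Pyruvate that does not become lactate enters mitochondria through the MPC carrier and the pyruvate dehydrogenase complex, which PDK kinases switch off. Of 15 such genes, all kept, 5 were higher and 0 lower in A549 spheroids, and 4 were higher and 2 lower in H1993 spheroids, with medians of 0.37 and 0.39. Over all kept genes, the share called in A549 spheroids was 12.4% higher and 10.3% lower, and in H1993 spheroids 17.0% higher and 18.0% lower. PDK1 had 926 reads in A549 spheroids and 179 in A549 adherent cells (2.30), and 811 in H1993 spheroids and 346 in the library labelled H1993 adherent (1.41). MPC1, a subunit of the pyruvate carrier, had folds of 1.72 and 2.18. PDK4 had 9293 reads in A549 spheroids and 1822 in A549 adherent cells (2.29), but 2170 in H1993 spheroids and 5926 in the library labelled H1993 adherent (-1.26), and PDK3 likewise had folds of 1.13 and -1.50. PDK2, named after its values were seen, had folds of 1.14 and 1.43. PDK1, PDK2 and MPC1 thus stood higher in the spheroids of both pairs, and PDK3 and PDK4 on opposite sides.

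Glucose can also be stored as glycogen. Of 19 genes of glycogen and free glucose formation 15 were kept, with 6 higher and 1 lower in A549 spheroids and 6 higher and 2 lower in H1993 spheroids, and medians of 0.18 and 0.81. Among all kept genes these shares were 12.4% higher and 10.3% lower for A549, and 17.0% higher and 18.0% lower for H1993. Higher in both were 3 subunits that bring protein phosphatase to glycogen, PPP1R3C (3.56 in A549, 1.07 in H1993), PPP1R3B (1.88 and 3.40) and PPP1R3G (2.72 and 3.39). PYGB, the brain glycogen phosphorylase, had 13186 reads in A549 spheroids and 3755 in A549 adherent cells, a fold of 1.75, and a fold of 0.85 in H1993, short of 2-fold.

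Of 19 regulators of glycolytic genes, all kept, 4 were higher and 1 lower in A549 spheroids, and 6 were higher and 3 lower in H1993 spheroids, with medians of 0.15 and 0.30. Over all kept genes the A549 shares were 12.4% higher and 10.3% lower, and the H1993 shares 17.0% higher and 18.0% lower, so the count lower in H1993 spheroids was near the share of all genes. TXNIP, a glucose-induced inhibitor of glucose uptake, had 1335 reads in A549 spheroids and 17 in A549 adherent cells, a fold of 6.08 (5.55 to 7.02), and 1181 in H1993 spheroids and 229 in the library labelled H1993 adherent, a fold of 2.54 (2.34 to 2.76). EGLN3, an oxygen-sensing hydroxylase that is itself a HIF target, had 4552 reads in A549 spheroids and 305 in A549 adherent cells (3.83), and 2010 in H1993 spheroids and 311 in the library labelled H1993 adherent (2.87). KLF4, a transcription factor, was also higher in both, at 1.56 and 4.19. ARRDC4, a relative of TXNIP, was higher in A549 spheroids at 3.66 and had at most 5 reads in each H1993 library. Named after their values were seen, HIF1A was lower in H1993 spheroids at -1.84 and short of 2-fold in A549 at -0.95, EPAS1 (HIF-2 alpha) was higher in H1993 spheroids at 2.32 and had 0.44 in A549, and MYC was lower in A549 spheroids at -1.56 and higher in H1993 spheroids at 1.57.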

How the data were processed

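Per the labels' protocols, total RNA of each of the 4 cultures was made into 1 stranded mRNA library with few PCR cycles. The build was hg38, per the submitters' processing notes; the aligner, counting program, use of strand and annotation were each not given in the sources used here. Per the file headers, the authors deposited whole-number counts of total and unique exon and intron reads for 43622 genes per library. The deposited TPM is a level per exon length, and the deposited RPKM, scaled by exon length and library size, entered no result. Total exon counts were between 15331121 and 17681746 per library, so the floor of 3 reads corresponds to 0.170 to 0.196 CPM (counts scaled by library size). Reads of PCR duplicates are not independent molecules, and intervals and floors cover counting error alone.

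Genes were kept with filterByExpr (15273 genes) and scaled by TMM in edgeR 4.0.16 (R 4.3.3), and log2 folds used a prior count of 2 with exact Clopper-Pearson intervals at 95%. Isoenzyme shares are shares of summed deposited TPM, with shares of exon reads beside those of HK2, LDHA and SLC16A3. For culture over both lines, glmQLFit and glmQLFTest of edgeR had terms for line and culture and p-values adjusted by Benjamini-Hochberg over all genes, with DESeq2 1.42.0 as the alternative. The 32 genes, the 5 further lists and the tests were chosen with earlier results of these data known. All 32 genes are named, and from each further list up to 4 genes that were called in a culture pair with at least 100 reads in the higher library, by the largest fold. Alternatives were 8 settings of scaling, filter, prior count, read type and call rule, and leaving out the library labelled H1993 adherent was added after seeing the data. Promoter windows came from RefSeq by gene symbol, which 28 of the 32 genes matched. One gene that the naming rule picks from a further list is not reported here.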

Additional observations from a re-analysis of the deposited data

Results flagged for a closer look

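For 3 genes the spheroid and adherent libraries lay on opposite sides in the 2 lines, each with a fold past 2 when scaled by TMM factors. The call of ENO3 in A549 was lost when scaled by library size alone and with TPM plus 1. The log2 fold of the A549 pair minus that of the H1993 pair was 3.68 for SLC2A3, the glucose carrier GLUT3 (2.52 and -1.16), 4.06 for SLC2A12, the carrier GLUT12 (1.85 and -2.21), and 3.64 for ENO3, the muscle enolase (1.03 and -2.61). With 1 library for each line and culture the difference was not tested. The share of all genes that lay on opposite sides is not given here. Each value rests on the library labelled H1993 adherent, which resembled adherent A549 cells more than H1993 spheroids, and the SLC2A12 folds on 31 adherent reads in A549 and 35 spheroid reads in H1993. In the A549 pair the intron fold of ENO3 was -0.74, opposite to its exon fold, and ENO3 overlaps PFN1 on the other strand. No group held enough libraries for a test of single outlying samples.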

How the results depend on the processing

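No called fold changed sign under any alternative run. Nor did any difference in isoenzyme share, spheroid minus adherent, whose intervals by exon reads lay apart. Of 1088 member folds under the alternatives, 958 stayed within their counting interval, 130 moved beyond it and 0 turned round as called values. Of the 958, 128 came from changing the call rule alone, which leaves every fold as it was. A called fold is at least 2-fold, so small shifts in scaling could not turn its sign. Of 100 differences in share, spheroid minus adherent, 59 stayed and 41 moved, 35 of these when shares were taken from exon reads without length. With library size alone, 2 members were lower in A549 spheroids (PFKP joined, at -1.01), ENO3 was no longer higher there, and in the H1993 pair ALDOA was lost and PFKM joined. That scaling moved the median of all genes in A549 to -0.11, and TPM plus 1 moved that of the spheroid line comparison to 0.15. With TPM plus 1, 1217 genes in all were higher in A549 spheroids and 589 in the library labelled H1993 adherent over A549 adherent cells, and the calls of ENO3 in A549 and of PKM between spheroids were lost. Without the filter, and also without the library labelled H1993 adherent (added after seeing the data), 2 members were higher in H1993 than in A549 spheroids, because FBP1 joined HK2; PCK1 then joined the genes higher in A549 spheroids. For culture over both lines, the fit without the filter called 173 of 25304 genes (0.684%) and 1 of 32 members (HK2). DESeq2 called 591 genes (3.87%) and 2 of 28 members (HK2 and ALDOC). Why these fits differ was not tested. The labels give no replicate numbers; the fit over both lines pairs spheroid with adherent libraries by line, and without that block it also called 0 genes. Leaving out replicates was not possible with 1 library for each line and culture. Counts under about 50 reads, as of HK2, ALDOC and SLC2A12 in A549 adherent cells, limit the size of those folds.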

Other observations

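Other branches leave glycolysis near its top. Of 14 genes of the pentose phosphate and hexosamine branches 13 were kept, with 2 higher and 1 lower in A549 spheroids and 2 higher and 4 lower in H1993 spheroids, and medians of -0.064 and -0.34. Over all kept genes, the share called in A549 spheroids was 12.4% higher and 10.3% lower, and in H1993 spheroids 17.0% higher and 18.0% lower, so the counts higher were near the shares of all genes. GFPT1, the entry enzyme of hexosamine synthesis, was higher in both, with 4275 reads in A549 spheroids and 2022 in A549 adherent cells (1.02), and 5603 in H1993 spheroids and 1594 in the library labelled H1993 adherent (2.0). UAP1, a later enzyme of that branch, was higher in H1993 spheroids at 2.26 and had 0.87 in A549, short of 2-fold. PGD, an enzyme of the pentose phosphate branch, had 3009 reads in H1993 spheroids and 20875 in the library labelled H1993 adherent, a fold of -2.61, against -0.59 in A549.

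Of 28 other isoenzymes and carriers of glucose or lactate 13 were kept, with 3 higher and 0 lower in A549 spheroids and 1 higher and 3 lower in H1993 spheroids, and medians of 0.60 and -0.29, beside the same shares of all kept genes (12.4% and 10.3% in A549, 17.0% and 18.0% in H1993). SLC2A13, a proton-linked inositol carrier of the same family, had 1805 reads in A549 spheroids and 269 in A549 adherent cells (2.67). SLC2A6, the carrier GLUT6, had 1464 reads in H1993 spheroids and 261 in the library labelled H1993 adherent (2.66). EMB, a partner protein of lactate carriers, had 98 reads in H1993 spheroids and 1139 in the library labelled H1993 adherent (-3.33). LDHD, the mitochondrial D-lactate dehydrogenase, had 184 reads in A549 spheroids and 43 in A549 adherent cells (1.99).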
